A study of Mus musculus with 18 samples.

Results

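The hippocampus of wild type C57BL/6 mice was compared with their skeletal muscle on 6 Affymetrix arrays, 3 for each tissue, chosen by their sample labels out of 18 arrays in the series. The other 12 arrays hold wild type heart and the same 3 tissues (hippocampus, skeletal muscle, heart) of littermates labelled +/+ that carry TN-XXL, an encoded calcium indicator whose sensing part derives from troponin C. Neither wild type group carries the transgene. Strain, genotype and tissue are the only properties the labels give, so the muscle that was sampled, the age and sex of the animals, and whether a tissue was pooled are not stated. The labels number the arrays of a group but do not say that each is a separate animal, and the p-values below therefore rest on the spread between these arrays alone, which may be technical.

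The hippocampus is a folded sheet of glutamate-releasing pyramidal and granule neurons, controlled by a smaller number of GABA-releasing interneurons and supported by astrocytes, oligodendrocytes and microglia. Skeletal muscle is built mainly of multinucleated fibres filled with sarcomeres, in which myosin thick filaments pull on actin thin filaments when calcium leaves the sarcoplasmic reticulum. Both are excitable tissues that depend on calcium signals, yet they use different channels, calcium-binding proteins and fuels, in many cases through separate members of the same gene family. The RNA was extracted from whole tissue, so fewer cells of a type and less RNA per cell cannot be told apart.

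The deposited log2 values cannot be set side by side between the tissues as they stand. The array median averaged 3.70 on the hippocampal arrays and 2.44 on the muscle arrays, and the 75th percentile 6.19 and 4.77, while the 99th percentile was closer, at 10.24 and 9.91. Levels are therefore given as log2 units above the median of the same array. Differences are hippocampus minus skeletal muscle on that median-centred scale with the standard error (SE) of the limma fit and n = 3 arrays in each tissue. The choice of scale moves every difference. Over all 35382 probe sets the median difference was −0.58 on the median-centred scale, 0.68 with the values as deposited and −0.09 after quantile normalization. A probe set was called only when its Benjamini-Hochberg adjusted p was under 0.05 in the same direction on each of the 3 scales, and the adjusted p printed is the largest of the 3. This rule is uneven. As deposited the hippocampal median is 1.26 higher, so a lower call needs a median-centred difference larger than that, and a higher call does not. Counts of higher and lower calls are therefore not comparable with each other. A gene whose mean lies under the array median in 1 tissue may have no signal above background there, which was not tested. No fold is given for such a gene, and its difference is read only as a size on this scale. The folds given for other genes are those of the median-centred scale and change with the scale too. The median is not a measured background, and as deposited it lies higher in hippocampus than in muscle. Arrays of 1 tissue correlated at 0.985 to 0.989 across probe sets, and arrays of different tissues at 0.757 to 0.762.

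By this rule 6448 of 35382 probe sets were higher in hippocampus (18.2%) and 2807 lower (7.93%). A difference of at least 8-fold on the median-centred scale was called higher for 1420 probe sets (4.01%) and lower for 809 (2.29%). With the deposited values alone these counts were 2735 and 396. These shares are over all probe sets, of which 12362 have no gene symbol. The list counts below take 1 probe set per gene, so the shares are an imperfect background for them. Of 662 genes on the lists described below 594 had a probe set with 1 symbol, and the others were not analysed here. The lists hold genes known for a cell type, tissue or process and were chosen with earlier results of these data known. Their counts are therefore a description. Among the 18781 genes that have a probe set with 1 symbol, 4729 had at least 1 such probe set called higher and 2023 at least 1 called lower. Of the calls that were at least 8-fold, 1037 of the 1420 higher ones had a muscle mean under the array median, and 465 of the 809 lower ones had a hippocampal mean under it.

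**Figure D1:**
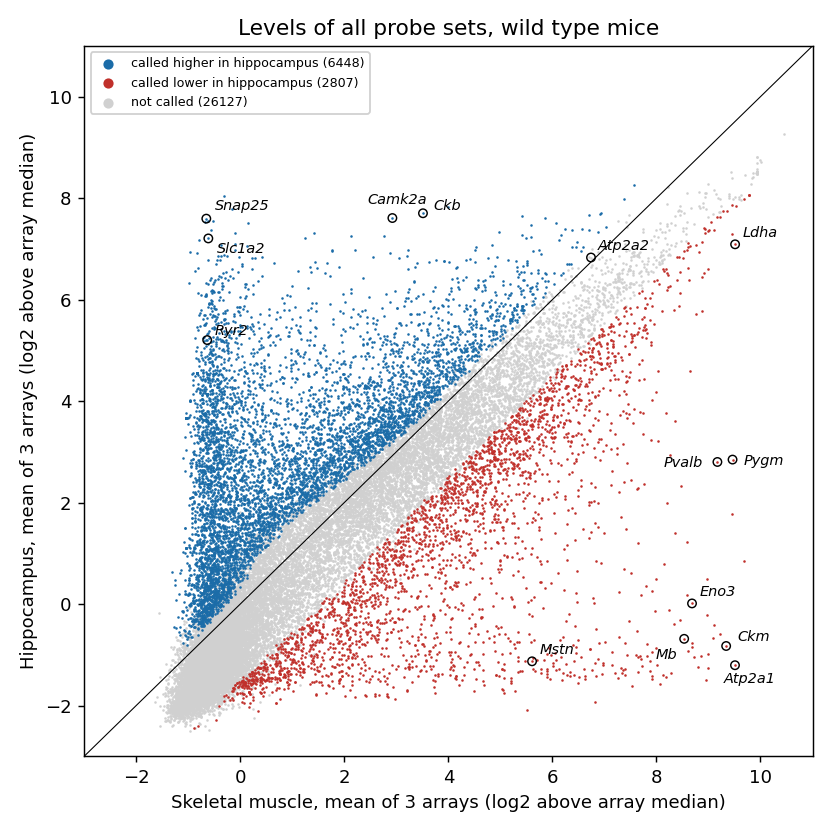
Mean level of every probe set in wild type hippocampus (vertical axis) against wild type skeletal muscle (horizontal axis), each the mean of 3 arrays in log2 units above the array median. Blue points are the 6448 called higher in hippocampus, red points the 2807 called lower, grey points were not called, the line marks equal levels, and circles mark genes named in the text, among them Snap25 at 7.60 in hippocampus and −0.65 in muscle.

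The genes with the largest calls in favour of hippocampus were mostly genes of synapses, calcium sensing and the axon. Snap25, a membrane protein that drives the fusion of synaptic vesicles, stood at 7.60, 7.62 and 7.57 on the 3 hippocampal arrays, against −0.77, −0.50 and −0.69 on the 3 muscle arrays. Its difference was 8.25 ± 0.10 (adjusted p = 4.06e-08), the largest among called genes with 1 symbol. Syt1, the calcium sensor of vesicle release, was at 7.55, 7.59 and 7.48 in hippocampus and −0.71, −0.70 and −0.61 in muscle, a difference of 8.21 ± 0.08. Neither gene came near an overlap between the tissues, and on the wild type heart arrays they averaged −0.50 and −0.40. Aldoc, the aldolase of astrocytes and some neurons, had levels of 7.47, 7.64 and 7.57 in hippocampus and of −0.75, −0.56 and −0.57 in muscle. Hpca, which encodes the neuronal calcium sensor hippocalcin, differed by 8.08 ± 0.10, and its relatives Vsnl1 and Hpcal4 by 7.95 and 7.42. The glutamate receptor subunit gene Gria1, the vesicular glutamate transporter gene Slc17a7, the axonal motor gene Kif5a and the astrocytic glutamate transporter gene Slc1a2 differed by 7.96, 7.95, 7.91 and 7.82. The list of 15 closed with Nell2, Cpne6, Nefl, Ctxn1 and Gabbr2, at 7.75, 7.45, 7.43, 7.42 and 7.39.

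The genes with the largest calls against hippocampus belonged to the muscle fibre. Atp2a1, the calcium pump of the sarcoplasmic reticulum in fast fibres, stood at −1.19, −1.49 and −0.93 in hippocampus and 9.50, 9.52 and 9.51 in muscle, a difference of −10.72 ± 0.15 (adjusted p = 4.06e-08). Myot, which encodes the Z-disc protein myotilin, had −1.70, −1.42 and −1.39 in hippocampus, against 8.91, 8.96 and 9.02 in muscle. Myh4, the myosin heavy chain of the fastest fibres, was at −1.14, −1.32 and −1.31 in hippocampus and 9.06, 9.0 and 8.90 in muscle. All 3 lay under the array median in hippocampus and near the top of the range in muscle. Heart, the other striated muscle of the series, separated them: Myot averaged 5.71 there, whereas Atp2a1 and Myh4 averaged −0.28 and −0.72. Ckm (muscle creatine kinase, −10.17), Mybpc2 (fast myosin-binding protein C, −10.05), Car3 (carbonic anhydrase 3, −9.98), Ttn (titin, −9.89) and Actn3 (alpha-actinin 3, −9.81) followed. The remaining genes of the 15 were Casq1, Tnnt3, Mylk4, Myh1, Klhl31, Ampd1 and Myoz1, with differences between −9.77 and −9.54.

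**Figure D2:**
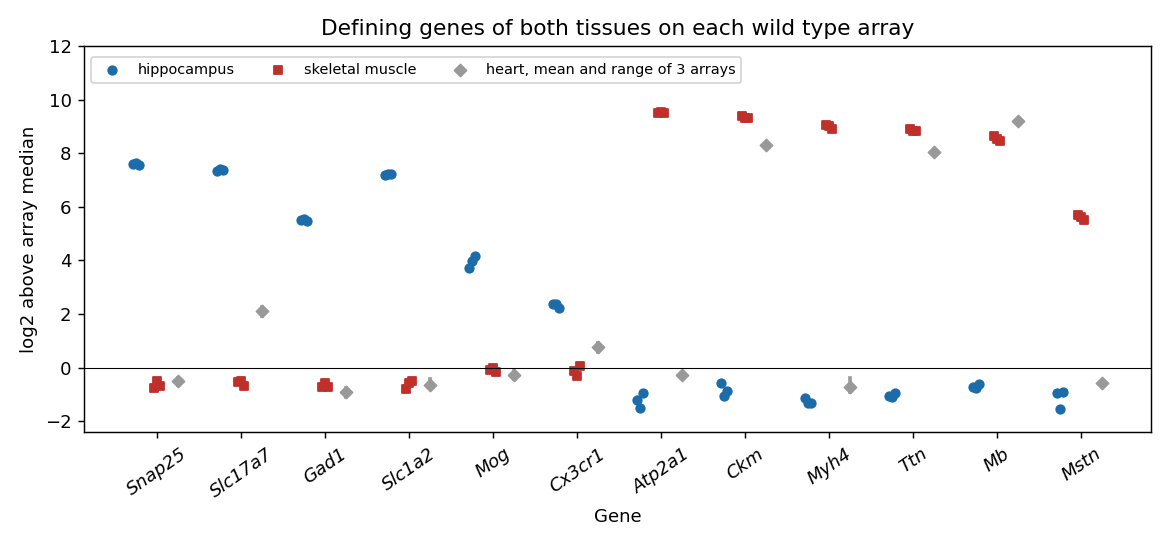
Levels of 6 neuronal and glial genes and 6 muscle genes on each wild type array, in log2 units above the array median. Circles are the 3 hippocampal arrays and squares the 3 muscle arrays, while diamonds give the mean of the 3 heart arrays with a bar for their range. The tissues do not overlap for any of the 12 genes, as for 28206 of all 35382 probe sets. Mstn, for example, was at −0.95, −1.55 and −0.89 in hippocampus and 5.70, 5.61 and 5.52 in muscle.

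The transmitter machinery of the synapse was higher in hippocampus throughout. Of 23 measured genes of synaptic vesicles and release, 23 were called higher, with a median difference of 5.52. Besides Snap25 and Syt1, Cplx1, which clamps the fusion machinery, differed by 6.94 ± 0.08, Syn1, which tethers vesicles, by 6.87 ± 0.08, and the vesicle protein gene Sv2a by 6.70 ± 0.17. All 21 measured glutamate receptor genes were called higher (median 4.88, lowest 1.19). The AMPA receptor gene Gria2 averaged 5.79 ± 0.06 in hippocampus and −0.75 ± 0.13 in muscle (SD). The NMDA receptor genes Grin2a and Grin2b differed by 6.41 and 6.77, the metabotropic receptor gene Grm5 by 6.59, and the kainate receptor gene Grik4 by 5.46. The 11 measured GABA receptor genes, which mediate inhibition, were all called higher as well (median 5.0). Among them Gabra5, a subunit abundant in hippocampus, was at 5.82, 6.01 and 5.91 in hippocampus and −0.67, −0.46 and −0.51 in muscle. Gabra2, Gabra4, Gabrb1 and Gabrb2 differed by 5.75, 5.0, 6.31 and 5.95.

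On the receiving side, 17 of 18 measured genes of the postsynaptic density were called higher (median 4.99). They included Nrgn, a calmodulin-binding protein of dendritic spines (6.71), the scaffold genes Shank1 (6.48) and Dlg2 (6.08), and the adhesion genes Lrrtm2 (6.30), Nrxn3 (6.19) and Nlgn3 (5.75). The scaffold gene Homer1 did not pass, with 3.74, 3.88 and 3.68 in hippocampus and 4.77, 4.68 and 4.95 in muscle, a difference of −1.04 on the median-centred scale but 0.22 with the deposited values. The neuronal cytoskeleton gave 13 calls in 13 genes (median 4.50), with the neurofilament genes Nefl and Ina at 7.43 and 6.74, the dendritic gene Map2 at 6.07 and the tubulin gene Tubb4a at 6.68. Stmn2, a stathmin of growing neurites, was also above the median in muscle, at 1.51, 1.74 and 1.74, against 6.75, 6.77 and 6.66 in hippocampus. For Stmn3 the brightest probe set differed by 7.36, but its probe sets disagreed, the lowest difference being −0.14. Of 13 neuronal voltage-gated channel genes 12 were called higher (median 4.44). The potassium channel gene Kcnd2 differed by 6.58 and was also present in heart, at 4.59. The sodium channel gene Scn8a differed by 6.11, the calcium channel genes Cacna1b and Cacna1e by 5.45 and 5.94, and Kcnc1, at 3.59 in hippocampus and 3.64 in muscle, did not pass.

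Markers of the excitatory neurons and their subfields gave 17 higher calls in 18 measured genes (median 4.03). Camk2a, the plasticity kinase of excitatory neurons, was at 7.57, 7.71 and 7.54 in hippocampus and 2.93, 3.05 and 2.79 in muscle, so that it was above the array median in both tissues and 25.7-fold higher in hippocampus. Mpped1 and Pcp4 differed by 6.05 and 5.51. Wfs1, a marker of CA1 pyramidal cells, did not pass, at 5.08 in hippocampus and 5.47 in muscle. Of the 19 measured genes of interneurons and neuropeptides, 17 were higher and 1 lower (median 2.36). The neuropeptide genes Sst and Cck differed by 7.24 ± 0.12 and 6.51 ± 0.10, and the GABA-synthesising enzyme genes Gad1 and Gad2 by 6.18 ± 0.08 and 5.04 ± 0.11. The 1 gene called against the list was Pvalb, the calcium buffer of fast-spiking interneurons and of fast muscle fibres. Pvalb stood at 2.86, 2.63 and 2.91 in hippocampus and at 9.14, 9.21 and 9.17 in muscle, 82.9-fold lower in hippocampus, and averaged −0.71 in heart. Nos1, which both neurons and muscle fibres express, did not pass, at 4.11 in hippocampus and 4.94 in muscle.

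Neuronal transcription factors and RNA-binding proteins were higher for 12 of 15 genes and lower for 1 (median 3.67). Rbfox3, the splicing factor known as NeuN, differed by 5.98 ± 0.08, the RNA-binding protein gene Celf4 by 6.49 ± 0.10, and the transcription factor genes Myt1l, Bcl11a, Lhx2 and Bcl11b by 5.74, 5.69, 5.31 and 4.94. The exception was Mef2c, a transcription factor used by neurons and muscle alike, with 4.94, 4.57 and 4.41 in hippocampus and 7.09, 6.97 and 6.80 in muscle, 4.97-fold lower in hippocampus. Rbfox1, a splicing factor of brain and muscle, was among the brighter genes in both tissues, at 6.36 in hippocampus and 7.31 in muscle, and did not pass.

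Most glial genes were higher in hippocampus. Of 15 astrocyte genes 14 were higher (median 3.38). The intermediate filament gene Gfap was at 4.17, 4.18 and 4.28 in hippocampus and −0.65, −0.59 and −0.96 in muscle, and Mlc1, Slc1a3 and Ntsr2 differed by 4.79, 4.73 and 4.53. The water channel gene Aqp4, a common astrocyte marker that fast muscle fibres also use, had 3.58, 3.77 and 3.49 in hippocampus and 4.54, 4.73 and 4.69 in muscle and did not pass. Of 14 genes of myelin and the oligodendrocyte lineage 12 were higher (median 3.19). Mog, which encodes a myelin surface protein, was at 3.71, 3.98 and 4.17 in hippocampus and −0.09, 0.01 and −0.16 in muscle. Mobp, another myelin component, was at 3.87, 4.17 and 4.51 in hippocampus and −0.52, −0.23 and −0.30 in muscle. Hippocampus replicate 3 was the highest for both, and the tissues did not overlap, as for 28206 of all 35382 probe sets. Cldn11, Mag, Gpr37 and the lineage factor gene Olig1 differed by 5.74, 4.42, 4.57 and 3.83. The genes Pdgfra and Cspg4, which mark oligodendrocyte precursors and also mesenchymal cells or pericytes, did not pass.

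Microglia and macrophage genes split. Of 15 measured, 10 were higher in hippocampus and 2 lower (median 1.33). The microglial receptor gene Cx3cr1 was at 2.36, 2.37 and 2.23 in hippocampus, against −0.13, −0.29 and 0.06 in muscle, and P2ry12 at 1.34, 1.78 and 1.82 in hippocampus, against −0.66, −0.52 and −0.83 in muscle. Trem2 and Ctss differed by 2.16 and 1.99. The 2 lower genes were scavenger receptor genes of tissue-resident macrophages. Mrc1 was at −0.65, −0.96 and −0.71 in hippocampus and 2.31, 1.38 and 1.97 in muscle, and Cd163 at −1.36, −1.38 and −1.44 in hippocampus and 0.85, 0.56 and 1.15 in muscle. Transporter and barrier genes of brain capillaries were higher for 7 of 9 (median 3.01), among them the lipid transporter gene Mfsd2a (4.55 ± 0.13) and the glucose transporter gene Slc2a1, which was above the median in both tissues and 3.31-fold higher in hippocampus. Slc22a8, Slco1c1, Slco1a4 and Slc7a5 differed by 3.65, 3.57, 3.53 and 3.01.

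**Figure D3:**
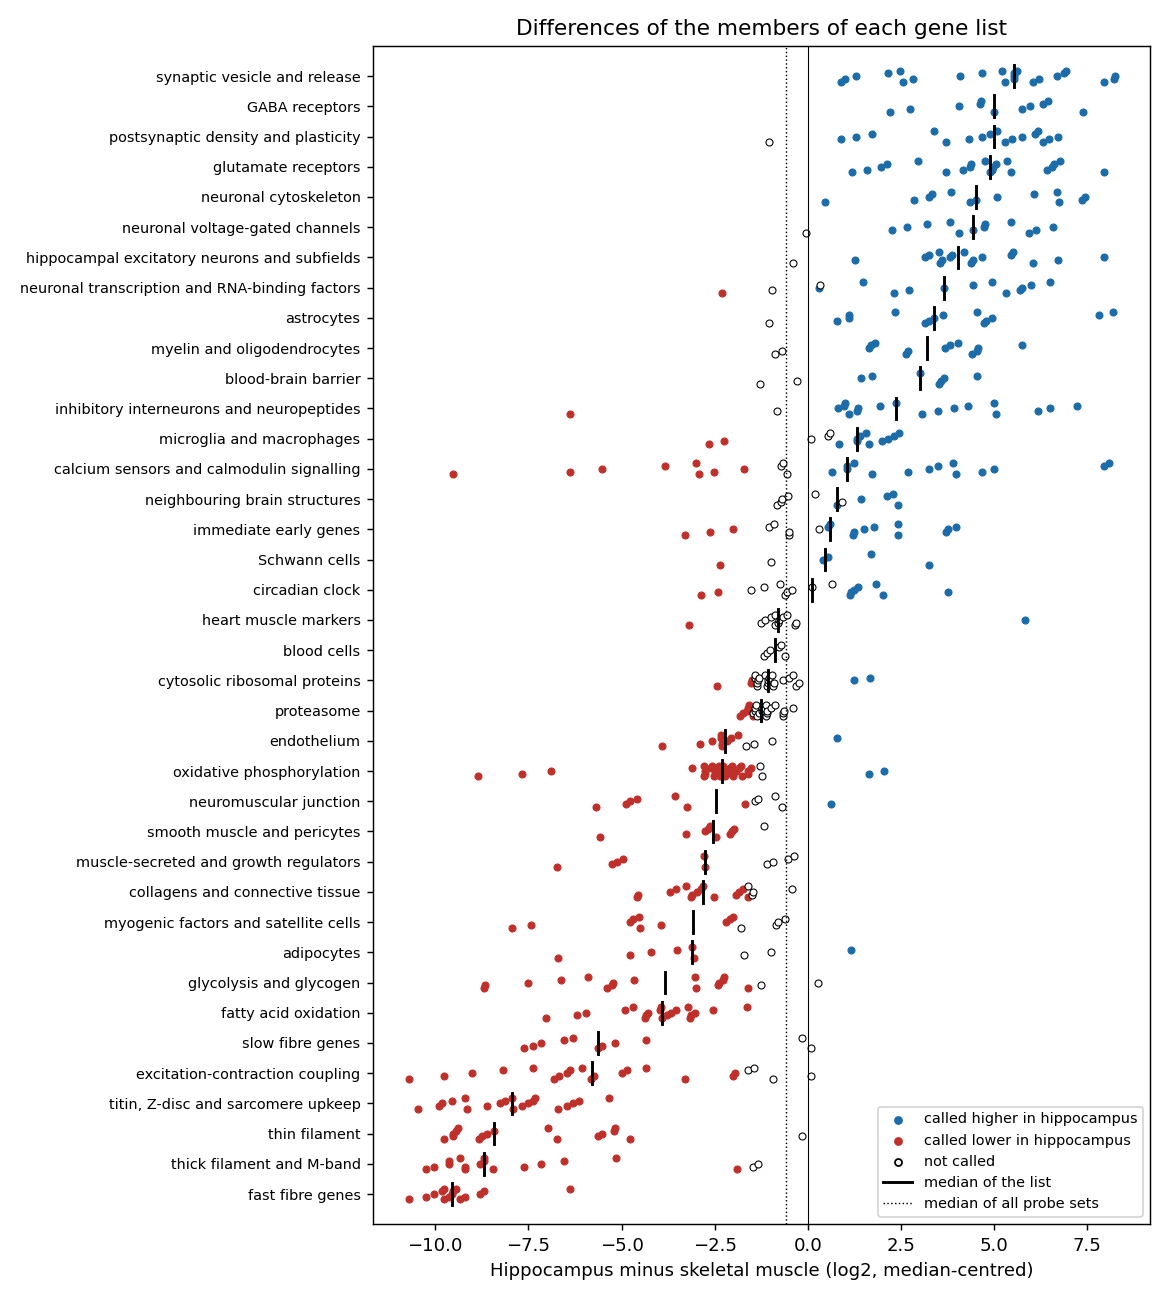
Hippocampus minus skeletal muscle difference (horizontal axis, log2, median-centred) for each measured gene of 38 gene lists, 1 list to a row, ordered by the median. Blue points were called higher in hippocampus, red points lower, open points were not called, thick bars are list medians and the dotted line is the median of all probe sets at −0.58. Medians run between 5.52 for synaptic vesicle genes and −9.54 for fast fibre genes.

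Nearly all genes of the sarcomere were lower in hippocampus. Of 18 measured genes of the thick filament and M-band 16 were called lower (median −8.69), of 17 thin filament genes 16 (median −8.42), and of 20 genes of titin, the Z-disc and sarcomere upkeep all 20 (median −7.93). The skeletal actin gene Acta1, the most abundant thin filament component, was at 0.64, 0.62 and 1.30 in hippocampus and at 9.69, 9.71 and 9.67 in muscle, 456-fold lower in hippocampus. Neb, the ruler protein nebulin, and Tnnc2, Tnni2 and Tnnt3, the fast troponin genes, differed by −9.53, −9.53, −9.44 and −9.77. Genes of the thick filament included the fast light chain gene Mylpf (−9.34) and the M-band gene Myom2 (−9.21). The embryonic and extraocular myosin genes Myh3 and Myh13, which adult limb muscle hardly uses, lay under the array median in both tissues and did not pass. At the Z-disc, the intermediate filament gene Des differed by −9.20 and Xirp2 by −9.15, while the ubiquitin ligase adaptor gene Klhl41, which stabilises nebulin, differed by −9.38.

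All 15 of 15 fast fibre genes were called lower in hippocampus (median −9.54), and their mean level per array ranged −0.98 to −0.61 in hippocampus, 8.53 to 8.64 in muscle and −0.07 to 0.02 in heart. Of 11 slow fibre genes 9 were called lower (median −5.64), with mean levels of 0.41 to 0.44 in hippocampus, 5.38 to 5.62 in muscle and 6.09 to 6.18 in heart. The heart uses many of the slow genes too. The slow myosin gene Myh7 was at −1.15, −0.76 and −0.77 in hippocampus and 6.79, 6.58 and 6.81 in muscle, and averaged 4.59 in heart. The light chain gene Myl2 was at −1.46, −1.47 and −1.44 in hippocampus and 5.06, 4.97 and 5.20 in muscle, and averaged 8.22 in heart. Csrp3, which encodes a stretch-responsive Z-disc protein, was uneven among the muscle arrays, at 4.46, 4.73 and 5.54, and uniformly low in hippocampus, at −1.31, −1.51 and −1.36. Atp2a2, the calcium pump of slow and heart muscle that other tissues use too, had 6.86, 6.88 and 6.76 in hippocampus and 6.87, 6.66 and 6.70 in muscle. These groups overlap and the gene did not pass.

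Excitation-contraction coupling, which turns the action potential into calcium release, was lower for 18 of 22 genes (median −5.78). The voltage sensor gene Cacna1s was at −1.11, −1.16 and −1.11 in hippocampus and 7.86, 7.89 and 7.90 in muscle. Ryr1, the calcium release channel of skeletal muscle, was above the array median in hippocampus too, at 1.20, 1.18 and 1.27, against 8.65, 8.59 and 8.53 in muscle, 166-fold lower in hippocampus. Casq1, the calcium store protein, differed by −9.77, the channel subunit gene Cacng1 by −8.18 and Hrc by −6.80. Among 13 measured heart muscle markers 1 was higher in hippocampus and 1 lower, against 18.2% and 7.93% of all probe sets. Ryr2, the ryanodine receptor of heart and brain, had 5.15, 5.26 and 5.20 in hippocampus and −0.67, −0.60 and −0.64 in muscle, and averaged 7.80 in heart. Myl4, an atrial light chain, was at 1.19 in hippocampus and 4.38 in muscle. The other 11 markers did not pass, among them Nppa, Gata4 and Tbx20, which lay under the array median in both tissues, and the whole list averaged 6.41 to 6.80 on the heart arrays, against −0.28 to −0.15 in hippocampus and 0.23 to 0.25 in skeletal muscle.

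The neuromuscular junction list gave 7 lower calls and 1 higher call in 12 genes (median −2.47). The organiser kinase gene Musk was at −0.58, −0.55 and −0.65 in hippocampus and 5.16, 5.04 and 5.06 in muscle, the acetylcholine receptor genes Chrne, Chrnb1 and Chrna1 differed by −4.88, −4.77 and −3.56, and Rapsn, which clusters these receptors, by −4.59. Lrp4, the agrin receptor of the junction, which brain cells also express, was the 1 higher gene, at 3.09, 3.10 and 3.17 in hippocampus and 2.42, 2.59 and 2.45 in muscle (0.63 ± 0.09, adjusted p = 0.00161). Myogenic factors were lower for 10 of 14 genes (median −3.07). Myf6, the myogenic factor of adult fibres, differed by −7.95 ± 0.11, Tbx15 by −7.43 ± 0.13 and Myod1, with a wider spread among muscle arrays of 3.85, 3.56 and 3.04, by −4.78 ± 0.20. Myog, at −1.46 in hippocampus and 0.34 in muscle, did not pass, nor did Mef2a and Mef2d, which were above the median in both tissues. Of 10 muscle-secreted and growth-regulating genes 6 were lower (median −2.77). The growth inhibitor gene Mstn differed by −6.74 ± 0.19, the secreted factor gene Ostn by −5.26 ± 0.27, the atrophy ligase gene Fbxo32 by −5.12 ± 0.19 and the growth factor gene Igf1 by −2.77 ± 0.08.

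Most genes of energy metabolism were lower in hippocampus. Of 18 genes of glycolysis and glycogen 16 were called lower (median −3.84). Pygm, muscle glycogen phosphorylase, was at 2.90, 2.67 and 2.97 in hippocampus and 9.47, 9.47 and 9.45 in muscle, 98.1-fold lower in hippocampus, and Gys1, glycogen synthase, was 42.3-fold lower. The insulin-responsive glucose transporter gene Slc2a4 differed by −8.70. Gapdh, often used as a loading control, had 8.76, 8.78 and 8.71 in hippocampus and 9.92, 10.06 and 10.02 in muscle on the median-centred scale (−1.25) but a difference of 0.01 with the deposited values, and did not pass. Fatty acid use gave 20 lower calls in 20 genes (median −3.92). The fatty acid uptake gene Cd36 differed by −7.02 ± 0.13, the lipase gene Lpl was 25.9-fold lower and the regulatory carboxylase gene Acacb 62-fold lower in hippocampus. Pdk4, the kinase that shuts pyruvate out of mitochondria, was at 1.75, 2.03 and 2.23 in hippocampus and 7.86, 8.07 and 8.65 in muscle, and the uncoupling protein gene Ucp3 at −0.61, −0.48 and −0.08 in hippocampus and 4.15, 4.74 and 4.67 in muscle. Oxidative phosphorylation was lower for 34 of 38 genes and higher for 2, with a smaller median of −2.30 (−1.05 with the deposited values). Atp5c1 and Sdhd, subunits of ATP synthase and complex II, differed by −2.78 ± 0.10 and −2.78 ± 0.09. The largest differences of that list were those of the cytochrome c oxidase isoform genes Cox8b, Cox7a1 and Cox6a2, at −8.86, −7.66 and −6.90, and the 2 higher genes were their counterparts Cox6a1 and Cox8a, at 2.03 and 1.63.

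Many of these differences pair off within gene families. In 29 families a member known from brain or from many tissues was listed beside one known from muscle, and both were measured in 26. The pairs were chosen for this known use, so the counts that follow are a description. The first was called higher and the second lower in 20 families, the muscle member alone was called lower in 5, and the brain member alone was called higher in 1. In enolase, Eno2 was at 6.48, 6.56 and 6.62 in hippocampus and −0.20, −0.26 and −0.36 in muscle, while Eno3 was at −0.18, 0.12 and 0.10 in hippocampus and 8.74, 8.67 and 8.65 in muscle. In cytosolic creatine kinase, Ckb was 18.2-fold higher in hippocampus (7.70, 7.69 and 7.71, against 3.66, 3.50 and 3.37 in muscle) and Ckm lower by a difference of −10.17, and the mitochondrial pair Ckmt1 and Ckmt2 differed by 5.36 and −8.34. Glycogen phosphorylase gave Pygb at 3.38 and Pygm at −6.62, hexokinase Hk1 at 3.43 and Hk2 at −5.90, phosphofructokinase Pfkp at 2.88 and Pfkm at −3.03, and phosphoglycerate mutase Pgam1 at 2.84 and Pgam2 at −7.52. Aldolase gave Aldoc at 8.19 and Aldoa at −1.61, where Aldoa was bright in both tissues (7.74 in hippocampus and 9.35 in muscle). Without hippocampus replicate 3 the Aldoa call was lost (difference −1.57, adjusted p = 0.0542), and with the replicate number as a block it was too (adjusted p = 0.0593).

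Calcium channels followed the same arrangement, with Ryr2 at 5.84 and Ryr1 at −7.37, and with Cacna1c at 3.67 and Cacna1s at −9.01. For the fatty acid binding proteins Fabp7, the form of radial glia and astrocytes, differed by 6.67, and Fabp3, the heart and muscle form, by −3.68. Smaller differences came from the ADP/ATP carriers (Slc25a5 at 0.65, Slc25a4 at −3.09) and from the translation elongation factors (Eef1a1 at 0.62, Eef1a2 at −1.78), of which Eef1a2, known from both muscle and neurons, was 6.12, 6.12 and 6.15 in hippocampus and 7.89, 7.86 and 7.97 in muscle. The families where only the muscle member was called were lactate dehydrogenase (Ldhb −0.39, Ldha −2.42), the calcium pump (Atp2a2 0.09, Atp2a1 −10.72), tropomyosin (Tpm3 −0.16, Tpm2 −8.74), cytochrome c oxidase subunit 7a (Cox7a2 −1.21, Cox7a1 −7.66) and the globins. There Ngb, neuroglobin, lay under the array median in both tissues, and Mb, myoglobin, was at −0.72, −0.75 and −0.59 in hippocampus and 8.63, 8.52 and 8.45 in muscle. In calmodulin kinase II, Camk2g did not pass, at 4.73 in hippocampus and 5.39 in muscle. Probe sets of 1 gene disagreed for Tpm3 (differences between −5.36 and −0.05), Actn1 (−0.73 to 1.70), Ampd2 (−0.41 to 2.57) and Acaca, where only 1 of 2 probe sets was called.

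**Figure D4:**
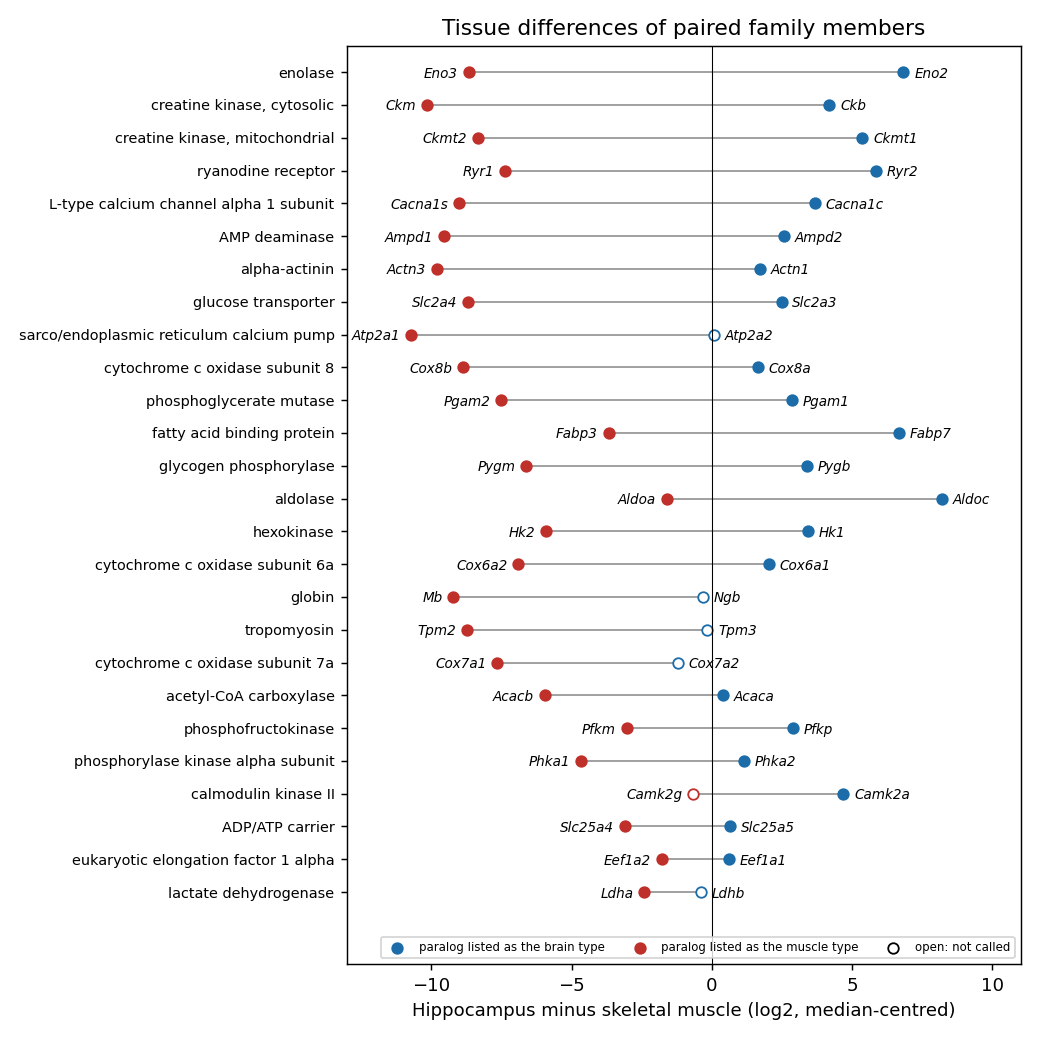
Hippocampus minus skeletal muscle difference (horizontal axis, log2, median-centred) of both members of 26 gene families, 1 family to a row. Blue marks the member listed as the brain type, red the member listed as the muscle type, and open circles were not called. Pairs were chosen by their known tissue use. The blue member lies to the right of the red one in all 26, with the widest gap in enolase (Eno2 6.83, Eno3 −8.67).

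Genes of protein synthesis and breakdown, which every cell uses, depended on the scale. Of 24 cytosolic ribosomal protein genes 3 were called lower and 2 higher, beside 7.93% and 18.2% of all probe sets, and their median was −1.07 on the median-centred scale and 0.19 with the deposited values. Rplp0 was 5.42-fold lower in hippocampus on the median-centred scale. The calls of Rpl27 (−1.51) and Rps20 (−1.52) were each lost when any hippocampal array or muscle replicate 1 was left out (adjusted p 0.0520 to 0.0927 and 0.0645 to 0.0826), that of Rpl27 also without muscle replicate 2 (adjusted p = 0.0825), and both with the replicate number as a block (adjusted p = 0.0759 and 0.0612). Only 1 of the 4 probe sets of Rpl27 was called. Rpl30 and Rpl3 were higher. Rpl3 was at 6.45, 6.47 and 6.23 in hippocampus and 4.72, 4.60 and 4.78 in muscle, and its 6 probe sets differed by 1.68 to 2.33. Its muscle paralog Rpl3l, which was chosen after its values were seen, was at −1.30, −1.52 and −1.45 in hippocampus and 6.30, 6.41 and 6.28 in muscle, with 5.04 in heart. Of 24 proteasome genes 6 were called lower, with a median of −1.27 (−0.01 with the deposited values). Psmb7, Psmb6 and Psmd1 differed by −1.81, −1.73 and −1.62. Psma6 (−1.58) lost its call without any hippocampal array or muscle replicate 1 or 2 (adjusted p 0.0547 to 0.109), Psmc3 (−1.48) without any 1 of the 6 arrays (0.0615 to 0.145) or with the block (0.105), and Psmd4 (−1.62) without hippocampus replicate 1 or 2 (0.0515 and 0.0529).

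Calcium sensors, a group that includes the troponin C genes, were divided between the tissues, with 14 of 25 genes higher in hippocampus and 8 lower. Hpca, Vsnl1 and the buffer gene Calb1 (5.0) stood at the hippocampal end, and the troponin C genes Tnnc2 and Tnnc1 and Pvalb at the muscle end. Tnnc2, the fast skeletal troponin C, was at −0.95, −0.96 and −0.64 in hippocampus and 8.76, 8.68 and 8.60 in muscle. Tnnc1, the slow and cardiac form, was at 0.03, 0.15 and 0.04 in hippocampus and 5.70, 5.58 and 5.49 in muscle, and averaged 8.16 in heart. Nfatc1, a calcium-dependent transcription factor, differed by −3.84 ± 0.15, and Rcan2 and the calcineurin gene Ppp3cb did not pass.

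Activity-induced genes were also mixed. Of 19 immediate early genes 11 were higher in hippocampus and 3 lower (median 0.60). The synaptic gene Arc was at 3.72, 3.97 and 3.85 in hippocampus and −0.07, −0.02 and 0.51 in muscle, and the transcription factor genes Egr3 and Nr4a2 differed by 3.76 ± 0.11 and 3.97 ± 0.14. Nr4a3 was even in hippocampus, at 3.79, 3.95 and 3.74, and uneven in muscle, at 1.04, 2.25 and 0.90. The 3 lower genes were Atf3, with −0.32, −0.19 and −0.32 in hippocampus and 2.32, 3.05 and 3.72 in muscle, Dusp1 (−2.64 ± 0.23) and Nr4a1 (−2.0 ± 0.20). Fos did not pass, at −0.003 in hippocampus and 0.49 in muscle. Of 17 clock genes 7 were higher and 2 lower, beside 18.2% and 7.93% of all probe sets (median 0.11). Per2, a repressor of the clock, was at 2.43, 2.42 and 2.46 in hippocampus and 0.44, 0.26 and 0.53 in muscle, Rorb and Hlf differed by 3.75 and 1.83, and the lower genes were Nfil3 (−2.86 ± 0.24) and Rora (−2.41 ± 0.13). The time of day of sampling is not given in the labels.

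Genes of blood vessels, connective tissue and fat cells differed as well. Of 14 endothelial genes 10 were lower in hippocampus and 1 higher (median −2.24), and their mean level per array was 2.05 to 2.17 in hippocampus and 4.0 to 4.18 in muscle. The junction gene Cdh5 was 15.1-fold lower in hippocampus and Pecam1 differed by −2.90 ± 0.13, while Cldn5, the tight junction gene of brain vessels, was at 4.66, 4.72 and 4.46 in hippocampus and 3.87, 3.50 and 4.12 in muscle, 1.72-fold higher in hippocampus. Smooth muscle and pericyte genes were lower for 9 of 10 (median −2.55), with the largest difference in Abcc9 (−5.58 ± 0.11), a potassium channel subunit that muscle fibres also express. Collagens and connective tissue genes were lower for 15 of 19 (median −2.82), among them Col3a1 (−4.59 ± 0.12), Col6a3 (−4.57 ± 0.13) and Col1a1 (−3.54 ± 0.14). Of 9 adipocyte genes 6 were lower and 1 higher. The fat-cell hormone gene Adipoq was at −1.42, −1.47 and −1.33 in hippocampus and 2.0, 1.83 and 1.11 in muscle, the lipid droplet gene Plin1 at −1.16, −1.35 and −0.91 in hippocampus and 2.79, 2.77 and 1.55 in muscle, and the hormone gene Retn at 0.25, −0.20 and 0.0 in hippocampus and 4.48, 4.60 and 3.62 in muscle. In all 3 genes muscle replicate 3 was the lowest of the muscle arrays. The 6 measured blood cell genes did not pass, though 6 were called lower on median-centred values alone and 3 higher with the deposited values alone by limma. Their mean level per array was −1.0 to −0.91 in hippocampus and −0.11 to −0.02 in muscle.

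Genes of structures next to the hippocampus were checked for tissue carried along at dissection. Of 11 such genes 5 were higher in hippocampus (median 0.77), and their mean level per array was 0.57 to 0.82 in hippocampus and −0.05 to 0.06 in muscle. The choroid plexus genes Ttr, Otx2 and Folr1 lay under the array median in hippocampus, at −0.08, −1.46 and −0.25, and did not pass. Kl, which both choroid plexus and hippocampal neurons express, was at 2.12, 1.89 and 2.29 in hippocampus and −0.18, −0.21 and −0.21 in muscle. The striatal genes Rgs9, Ppp1r1b, Drd2 and Drd1 averaged 1.86, 1.82, 1.02 and 0.57 in hippocampus, against −0.55, −0.31, −0.40 and −0.20 in muscle. The part of neighbouring tissue in the hippocampal values was not tested. Of 6 Schwann cell genes, which mark nerve inside muscle, 2 were called higher and 1 lower in hippocampus of transgenic mice, and 4 higher and 1 lower in wild type mice. The wild type call of Cdh19 (0.40) was lost without any hippocampal array or muscle replicate 1 or 2 (differences 0.34 to 0.45, adjusted p 0.0534 to 0.0803), and that of Egr2 (0.54) with all 18 arrays in the fit (adjusted p = 0.201). S100b and Sox10, which glia of the brain share, differed by 3.26 and 1.68, and Pmp22, which connective tissue also expresses, was 5.11-fold lower in hippocampus.

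MicroRNA genes have probe sets of their own on this array. These report RNA that covers the gene, and the mature microRNAs were not measured separately. Of 10 genes of brain-enriched microRNAs 4 were called higher in hippocampus, and of 8 genes of muscle microRNAs 3 were called lower. For Mir9-1, Mir9-2, Mir128-1, Mir137 and Mir133b the better known arm of the mature product is shown. The seed, bases 2 to 8 that pair with target transcripts, is in capitals. Which arm was present was not measured. Sequences and positions are those of RefSeq on build GRCm38.p6.
mmu-miR-9-5p (Mir9-1, chr3:88215613-88215635, and Mir9-2, chr13:83738821-83738843, plus strand): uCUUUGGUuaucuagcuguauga
mmu-miR-128-3p (Mir128-1, chr1:128202404-128202424, plus strand): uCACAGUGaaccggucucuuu
mmu-miR-137-3p (Mir137, chr3:118433901-118433923, plus strand): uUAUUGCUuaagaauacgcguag
mmu-miR-133b-3p (Mir133b, chr1:20682834-20682855, plus strand): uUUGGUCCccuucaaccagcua
The 4 seeds differ from each other. miR-9-5p is made by both Mir9-1 and Mir9-2. Mir9-2 was at 2.16, 2.29 and 2.04 in hippocampus and −0.93, −0.73 and −0.64 in muscle, and Mir9-1 at 2.59, 2.30 and 2.21 in hippocampus and −0.29, −0.25 and −0.48 in muscle. The third copy, Mir9-3, encodes the same mature sequence and did not pass, at −0.75 in hippocampus and −0.80 in muscle. Mir128-1 and Mir137, both known from neurons, differed by 2.85 ± 0.09 and 1.32 ± 0.11. The largest differences among the muscle genes were those of Mir133a-2 and Mir133a-1, which are named only, at −4.04 ± 0.19 and −3.44 ± 0.13. Mir133b was at −1.43, −1.10 and −1.25 in hippocampus and 0.24, 0.36 and 0.45 in muscle (−1.61 ± 0.12, adjusted p = 0.029), and its call was lost without hippocampus replicate 1 or 3 or muscle replicate 2 or 3 (differences −1.62 to −1.52, adjusted p 0.0636 to 0.0827). Mir206 and Mir1a-1 lay under the array median in both tissues and did not pass.

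Promoters of the 2 sets of genes with at least 8-fold calls were read for known motifs, taking the sets of the median-centred scale, since transcription in muscle is controlled through E-boxes bound by myogenic factors, MEF2 sites and CArG boxes bound by serum response factor. RefSeq promoters (build GRCm38.p6, 250 bases before to 50 bases after the start) were found for 848 of 1120 genes with higher calls, 497 of 648 with lower calls and 14713 of 18781 genes with a probe set of 1 symbol. The MEF2 motif, searched on both strands, occurred in 0.505% of the promoters of the higher genes, in 3.5% of those of the lower genes and in 0.508% of those of all measured genes. CArG boxes, on both strands, occurred in 1.43%, 3.18% and 1.41% in the same order. The E-box CANNTG, which reads the same on both strands, was in 66.7%, 75% and 68.1%, and TATAAA on the gene's strand in 3.88%, 9.38% and 7.43%. The cAMP response element TGACGTCA, which also reads the same on both strands, was in 2.27%, 0.954% and 2.42%. The median promoter held 16 CG pairs among the higher genes, 10 among the lower genes and 15 among all measured genes. These shares are descriptions with no test, and a match is not a site shown to be bound.

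A few promoters are shown because they belong to genes described above and hold these motifs, in capitals. The Myh4 promoter (chr11:67237562-67237861, plus strand) has 3 E-boxes, 1 CArG box and 2 TATAAA matches, and the Acta1 promoter (chr8:123894726-123895025, minus strand) has 2 E-boxes, 1 CArG box and 1 TATAAA match. The Klhl41 promoter (chr2:69669870-69670169, plus strand) has 4 E-boxes and 1 MEF2 match. Of 197 named genes with a promoter 8 held a MEF2 match. Klhl41, Ttn, Xirp2, Myoz2 and Atf3 among them were called lower in hippocampus, and Ckb, Dlg2 and Gabrb2 were called higher. The Sst promoter (chr16:23890795-23891094, minus strand), of a gene higher in hippocampus, has 1 E-box and 1 TGACGTCA.
Myh4: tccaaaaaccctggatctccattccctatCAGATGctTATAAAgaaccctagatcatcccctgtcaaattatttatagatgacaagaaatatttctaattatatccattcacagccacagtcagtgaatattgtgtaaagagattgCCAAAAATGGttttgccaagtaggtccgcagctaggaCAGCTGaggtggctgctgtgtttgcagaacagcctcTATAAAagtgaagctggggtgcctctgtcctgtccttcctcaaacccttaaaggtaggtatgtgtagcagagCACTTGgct
Acta1: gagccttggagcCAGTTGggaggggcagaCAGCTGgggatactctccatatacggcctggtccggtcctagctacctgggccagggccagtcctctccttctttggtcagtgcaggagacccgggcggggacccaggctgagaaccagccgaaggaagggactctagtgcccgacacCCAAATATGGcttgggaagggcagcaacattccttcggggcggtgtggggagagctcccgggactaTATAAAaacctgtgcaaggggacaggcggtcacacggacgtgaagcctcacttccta
Klhl41: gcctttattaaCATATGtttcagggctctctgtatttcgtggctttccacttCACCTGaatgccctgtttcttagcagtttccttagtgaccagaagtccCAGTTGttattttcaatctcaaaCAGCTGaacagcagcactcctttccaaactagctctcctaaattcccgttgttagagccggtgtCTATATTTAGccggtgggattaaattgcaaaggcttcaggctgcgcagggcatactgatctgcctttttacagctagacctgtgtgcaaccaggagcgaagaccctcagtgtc
Sst: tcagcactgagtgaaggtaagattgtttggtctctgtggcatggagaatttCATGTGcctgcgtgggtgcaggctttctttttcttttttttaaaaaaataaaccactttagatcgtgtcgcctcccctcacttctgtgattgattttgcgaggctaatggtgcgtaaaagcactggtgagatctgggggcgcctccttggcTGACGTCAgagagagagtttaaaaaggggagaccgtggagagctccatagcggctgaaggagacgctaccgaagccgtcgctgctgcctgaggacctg
Of these genes Myh4, Acta1 and Klhl41 differed by −10.24, −8.83 and −9.38, and Sst by 7.24.

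The same contrast in transgenic mice rests on 6 arrays that the wild type contrast does not use. There 6689 probe sets were called higher in hippocampus (18.9%) and 2869 lower (8.11%). Of the higher calls, 5806 were shared, which is 86.8% of the transgenic and 90.0% of the wild type calls, and of the lower calls 2360 were shared, 82.3% of the transgenic and 84.1% of the wild type calls. Snap25 differed by 8.32 in transgenic and 8.25 in wild type mice, Atp2a1 by −10.48 in transgenic and −10.72 in wild type mice, and Pvalb by −6.31 in transgenic and −6.37 in wild type mice. Only 1 probe set was called in opposite directions, that of Ttll7, a tubulin-modifying enzyme gene. Ttll7 averaged 4.29 in hippocampus and 3.88 in muscle of transgenic mice, against 4.31 in hippocampus and 6.01 in muscle of wild type mice.

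When the tissue difference itself was compared between genotypes in 1 fit of 12 arrays, 680 of 35382 probe sets were called (1.92%). In transgenic mice the hippocampus minus muscle difference was more positive for 393 of them and more negative for 287. More positive can mean a narrower gap, as for Cish, at −2.68 in transgenic and −4.95 in wild type mice. The count of called probe sets was 308 to 407 without any 1 hippocampal array of either genotype. It was 425 with the replicate number as a block. Among 637 listed or named genes 43 were called. Of these, 10 were named because they had the smallest p of this test, so the 43 cannot be set against the 1.92%. Of the examples that follow, Adcy2 was named for its small p in that test, and Per2 and Npas2 are genes of the clock list that it called. Their values are a description. Adcy2, an adenylyl cyclase gene, differed by 3.10 in transgenic and 0.34 in wild type mice. Its muscle mean was 2.09 in transgenic and 4.77 in wild type mice, while its hippocampal mean was 5.19 in transgenic and 5.11 in wild type mice. Without any 1 of the 3 wild type hippocampal arrays, or without wild type muscle replicate 1 or 3, the wild type call of Adcy2 was lost (differences 0.22 to 0.38, adjusted p 0.0516 to 0.0884), and with the replicate number as a block it was too (adjusted p = 0.0585). The clock genes Per2 and Npas2 differed between genotypes in opposite directions, with Per2 at 0.10 in transgenic and 2.03 in wild type mice, and Npas2 at 3.34 in transgenic and 1.36 in wild type mice. For both, the means of the genotypes were closer in hippocampus than in muscle. Per2 averaged 2.81 in transgenic and 2.44 in wild type hippocampus, and 2.71 in transgenic and 0.41 in wild type muscle. Npas2 averaged 4.01 in transgenic and 4.0 in wild type hippocampus, and 0.66 in transgenic and 2.64 in wild type muscle.

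**Figure D5:**
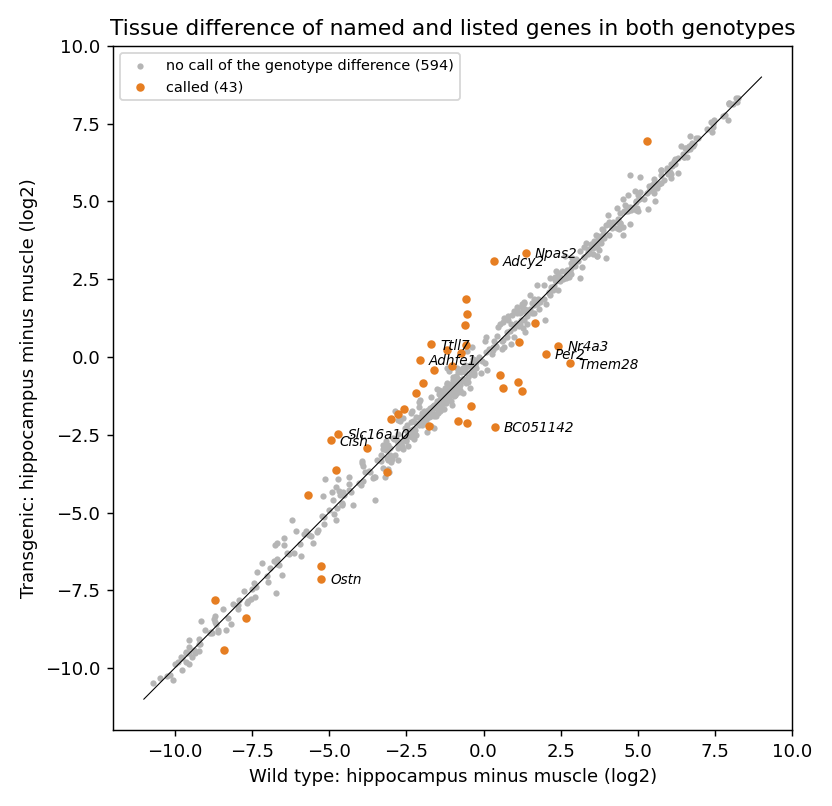
Hippocampus minus skeletal muscle difference in transgenic mice (vertical axis) against wild type mice (horizontal axis), both log2 and median-centred, for 637 listed or named genes. Orange points are the 43 genes whose tissue difference was called different between genotypes, grey points the other 594, and the line marks equality. Of the 43 genes, 10 were named for the smallest p of that test. Most genes lie near the line, while Adcy2 lies at 3.10 in transgenic and 0.34 in wild type mice.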

How the data were processed

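RNA of 18 mouse tissue samples was isolated on columns and labelled by a whole transcript method, per the labels' protocols, and hybridised to Affymetrix arrays, 1 per sample. The values are log2 intensities made by the authors with RMA (background correction, normalization and probe summary) using R 2.10.0 (source: per the submitters' processing notes). Which arrays were normalized together, the chip definition and any filter are details not given in the sources used here. All 35382 probe sets were tested with no filter. Of these 21153 had 1 gene symbol in GEO's platform annotation, 1867 several and 12362 none, and 21123 matched a RefSeq gene by Entrez ID. A gene with several probe sets was taken from the brightest. Arrays report no counts, so the number of arrays limits the precision.

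Wild type hippocampus and skeletal muscle were compared with limma 3.58.1 in R 4.3.3 (lmFit and eBayes, two-sided, Benjamini-Hochberg over all probe sets) on values centred on each array's median, as deposited, and quantile-normalized, and a call required an adjusted p under 0.05 in the same direction on all 3. The same fit was made for transgenic mice, and 12 arrays gave the test of the tissue difference between genotypes. The fit was also run on simulated data with 1 constant offset between the tissues. The real gap varied with level, at 1.42 at the 75th percentile and 0.325 at the 99th, so that run does not test the scales. Named genes are the 15 highest and 15 lowest called genes, up to 6 called members of each of 39 lists by size and up to 4 called against the majority, all genes of the family pairs, members that did not pass, and 10 called genes of smallest interaction p. The lists were chosen with earlier results of these data known. The 2 microRNA lists were added after the annotation was seen. Alternatives were single scales, each array left out, the replicate number as a block, all 18 arrays in the fit and an adjusted p under 0.01. Figures were drawn with matplotlib 3.10.9 in Python 3.11.15.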

Additional observations from a re-analysis of the deposited data

Results flagged for a closer look

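For 22 named genes the hippocampus minus skeletal muscle difference itself differed between transgenic and wild type mice by the limma interaction test, with adjusted p under 0.05 on all 3 scales. Of these genes, 10 were named because they had the smallest p of that test. Values are transgenic minus wild type, in log2 units with SE, followed by the tissue difference in each genotype.

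The larger part were positive. Adcy2 gave 2.76 ± 0.15 (3.10 in transgenic and 0.34 in wild type mice), Cish, a cytokine signalling inhibitor, 2.27 ± 0.36 (−2.68 and −4.95), and the amino acid transporter gene Slc16a10 2.24 ± 0.16 (−2.46 and −4.70). Ttll7 gave 2.11 ± 0.15 (0.41 and −1.70), Npas2 1.98 ± 0.25 (3.34 and 1.36) and Adhfe1 1.96 ± 0.13 (−0.09 and −2.05). Cdk19 gave 1.92 ± 0.15 (1.38 and −0.54), Agt, which encodes angiotensinogen, 1.63 ± 0.12 (1.02 and −0.61), and Nup210, a nuclear pore gene, 1.40 ± 0.10 (0.21 and −1.19). The junction genes Musk and Chrnb1 gave 1.23 ± 0.15 (−4.45 and −5.68) and 1.14 ± 0.17 (−3.64 and −4.77). Igf1 gave 0.93 ± 0.14 (−1.84 and −2.77) and the endothelial receptor gene Tek 0.91 ± 0.17 (−1.68 and −2.58).

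For the others it was negative. Tmem28 gave −2.98 ± 0.20 (−0.20 in transgenic and 2.78 in wild type mice), BC051142 −2.60 ± 0.20 (−2.24 and 0.36), Nr4a3 −2.06 ± 0.40 (0.36 and 2.43) and Per2 −1.92 ± 0.25 (0.10 and 2.03). The muscle genes Ostn and Fbp2 gave −1.88 ± 0.31 (−7.13 and −5.26) and −1.46 ± 0.11 (−6.71 and −5.25). Rpl3 gave −0.60 ± 0.12 (1.08 and 1.68), Ndufa1, a complex I gene, −0.57 ± 0.10 (−3.69 and −3.12), and Eef1a2 −0.45 ± 0.09 (−2.23 and −1.78).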

How the results depend on the processing

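The scale decided most counts, and the cause was not tested. In wild type mice 7264 probe sets were called higher in hippocampus and 20282 lower on median-centred values alone, 24611 and 2819 with the deposited values alone, and 7976 and 10187 with quantile-normalized values alone, against 6448 and 2807 on all 3. Calls of at least 8-fold were 2735 higher and 396 lower with the deposited values, and 1506 and 738 with the quantile-normalized ones. Transgenic mice gave 7547 and 20335, 23966 and 2881, and 8126 and 10233 on the same 3 scales. Single genes were followed through the settings for 17 that were not called, and not for every gene named above as not passing. With the deposited values alone 15 of the 17 changed sign (Agt 0.65, Cdk19 0.72, Nup210 0.072, Camk2g 0.60, Cox7a2 0.048, Cpt1a 1.19, Ldhb 0.87, Ngb 0.93, Tpm3 1.10, Aqp4 0.22, Gapdh 0.009, Homer1 0.22, Nos1 0.43, Rbfox1 0.30 and Wfs1 0.87). Some also did with the quantile-normalized values (Ldhb 0.076, Ngb 0.15, Tpm3 0.35, Gapdh 0.013 and Wfs1 0.11), and Cpt1a without muscle replicate 3 (0.19, range −0.20 to 0.19 over the arrays left out).

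Leaving out 1 array gave 6093 to 6309 wild type calls higher and 2631 to 2764 lower. The 680 interaction calls fell to 308 to 569, and by more than 1.5 times without any wild type hippocampal array (392, 361 and 407 without replicate 1, 2 and 3) or any transgenic one (367, 308 and 336). Same-numbered arrays did not deviate together over all probe sets (correlations −0.05 to 0.003). A shared animal that affects few genes would not show in this check, so whether the numbers pair animals is unknown. With the replicate block there were 6266 calls higher and 2701 lower in wild type mice, 6488 and 2751 in transgenic mice, and 425 interaction calls. All 18 arrays in the fit gave 6548 and 2847, and an adjusted p under 0.01 gave 5578 and 2362. Of 260 called named genes, 9 lost the call without some array, 5 with the block, 2 with all 18 arrays and 10 at 0.01.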

Other observations

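Sex-linked genes pointed one way on all 6 wild type arrays. Xist, the RNA of the inactive X chromosome, was under the array median on each, at −1.84, −1.76 and −2.11 in hippocampus and −0.81, −0.48 and −0.90 in muscle. The Y-linked gene Eif2s3y was above it, at 2.71, 2.34 and 2.61 in hippocampus and 3.24, 2.92 and 2.64 in muscle, and the Y-linked genes Kdm5d and Uty were above the array median on all 6 too. These genes did not pass between the tissues.

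A few genes, picked after their values were seen, were uneven among the muscle arrays. Replicate 3 was the highest of the 3 muscle arrays for Pdk4 (7.86, 8.07 and 8.65 in replicate order), the ligase gene Fbxo32 (5.99, 6.21 and 6.64) and Csrp3 (4.46, 4.73 and 5.54), and the lowest for the adipocyte genes Adipoq, Plin1 and Retn. The mean level of the fatty acid oxidation list was close on the 3 muscle arrays, at 5.90 to 6.03, and that of the titin and Z-disc list at 7.33 to 7.49. What set these genes apart was not tested.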
